A study of Drosophila melanogaster with 3 samples.

Results

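Of 500 genes annotated as antisense RNAs (gene names that start with asRNA:), 53 reached 1 FPKM (fragments per kilobase of exon, scaled for library size) in each of 3 libraries of Drosophila melanogaster wing imaginal discs. These 53 genes are described here, out of 17611 genes in the deposited table. They were chosen by their level in each library, so their levels are a description and were not tested. A wing disc is the sac of epithelium in the larva from which a wing and part of the thorax grow. Per the labels the discs came from wandering larvae of the third instar, about 5 days old and raised at 25 °C, with the genotype w;apGAL4/+. That genotype, which the labels also call wild type, holds a single copy of a GAL4 driver at apterous, a gene of the dorsal compartment. Each sample pooled 100 to 120 discs, and the 3 samples form 1 group, so no conditions were compared. The labels do not say whether the 3 samples came from separate cultures, and the spread between them may be technical.

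Antisense RNAs are transcripts read from the strand opposite to another gene, here called the sense partner, and their exons overlap that gene's exons or lie within its span. Some antisense RNAs act on the gene they overlap, through transcription in the opposite direction, through chromatin or by pairing with its RNA, and others have no known role. In Drosophila most are noncoding genes of one or a few exons, and most carry only an annotation number. The functions named below are those of the partners.

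The partner of an antisense RNA was the gene on the other strand with the largest overlap of exons. All 53 had a protein-coding partner, and the 53 partners were different genes. The 3 libraries held 26454949, 26098530 and 25047774 reads or read pairs, recovered from the FPKM values and gene lengths, and the 53 genes held 35 to 2182 of them each over the 3 libraries, with a median of 220. The disc epithelium markers nub, vg, sd, ap, wg and dpp were each above 1 FPKM throughout. Markers of other tissues were present as well: the summed level of 6 gut genes was 6.90, 876 and 391 FPKM in libraries 1, 2 and 3, that of 6 salivary glue genes 126, 811 and 288 FPKM and that of 6 fat body genes 535, 893 and 2439 FPKM. Fewer cells of a type and less RNA per cell cannot be told apart in such pooled tissue.

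Reads were counted by strand, as the table itself shows. Among genes other than antisense RNAs whose exons lie wholly under exons of a same-strand gene, 326 of 326 had no read in any library. Among those wholly covered by exons on the other strand, 29 of 100 had no read, and 24 stood at 1 FPKM or more in every library. Genes with no such cover had no read in 23.5% of 12048 cases. With partial cover on the other strand, 4.21% had no read at over 0 to 25% cover and 16.0% at over 75 and under 100%. The share at 1 FPKM or more in every library was 72.8% and 40.3% in these classes. Why it differed was not tested. Cover on the other strand therefore did not bar a gene from having reads, whereas reads shared with a gene on the same strand were not counted. Of the 53 antisense RNAs, 47 had no exon base in common with a gene on their own strand. The largest such cover was on 29.0% of the exons of asRNA:CR45873, which overlaps CG3552, and on 22.4% of those of asRNA:CR45485, which overlaps CG3679.

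**Figure D1:**
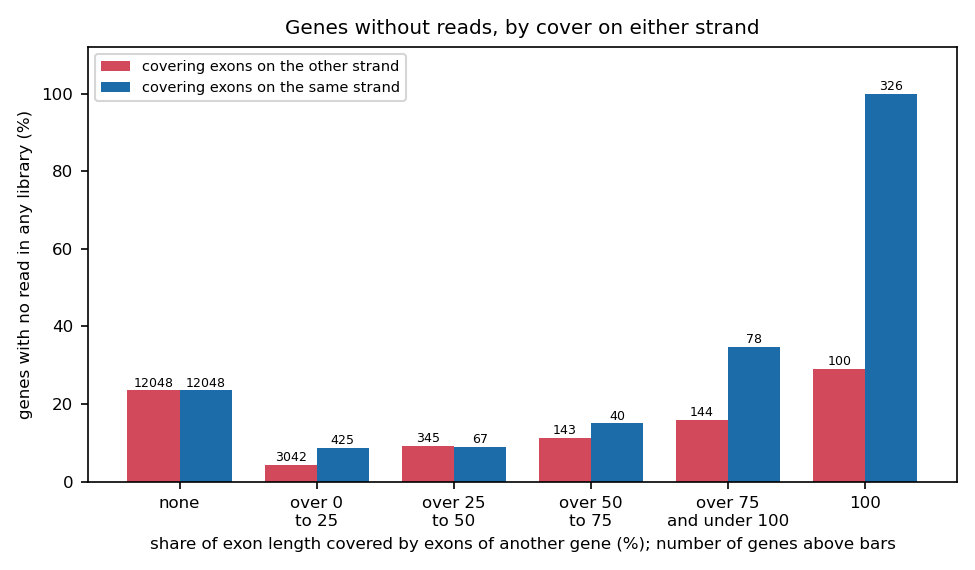
Percentage of genes other than antisense RNAs with no read in any library (vertical axis), by the share of their exon length covered by exons of another gene (horizontal axis), for cover on the other strand and on the same strand, with the number of genes above each bar. Genes with full cover on the same strand had no read in 326 of 326 cases, against 29 of 100 with full cover on the other strand.

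Stranded libraries can hold some reads with the strand reversed, so antisense levels were set beside strongly expressed partners. There were 37 antisense genes with at least 50% of their exons overlapped by a partner of at least 50 FPKM. For each, the antisense level was taken as a percentage of the partner's level times the overlapped share, the reversed share of the partner's reads that would be needed to give all of the antisense level. Among the 32 of these that are not among the 53, the median was 0.179% and the highest 1.82%, and 3 had no read. asRNA:CR45874, opposite the ribosomal protein gene RpS9 at 1878 FPKM, was at 0.817, 0.397 and 0.595 FPKM, or 0.0548%. The 5 that are among the 53 stood at 0.673 to 7.93%. The rule that chose the 53 sets this difference in part, since the antisense level is the numerator of the percentage.

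Over the 51 of the 53 whose partner had reads, this percentage was 0.673% at the lowest and 24.3% at the median. Only asRNA:CR45969 was under 2%. It lies opposite Arf79F, a small GTPase that recruits vesicle coats at the Golgi, and was at 1.53, 1.57 and 1.49 FPKM in libraries 1, 2 and 3, against 378, 378 and 360.4 FPKM for Arf79F. Its 35 reads over the 3 libraries give a 95% Poisson interval of 1.06 to 2.13 FPKM, which covers counting error only. The next lowest was asRNA:CR45835, at 3.63%. When 1% of the partner's level over the overlap was taken off, an alternative chosen after the data were seen, 50 of the 53 still met the limit of 1 FPKM throughout. Those that did not were asRNA:CR45969, asRNA:CR45835 and asRNA:CR45485.

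**Figure D2:**
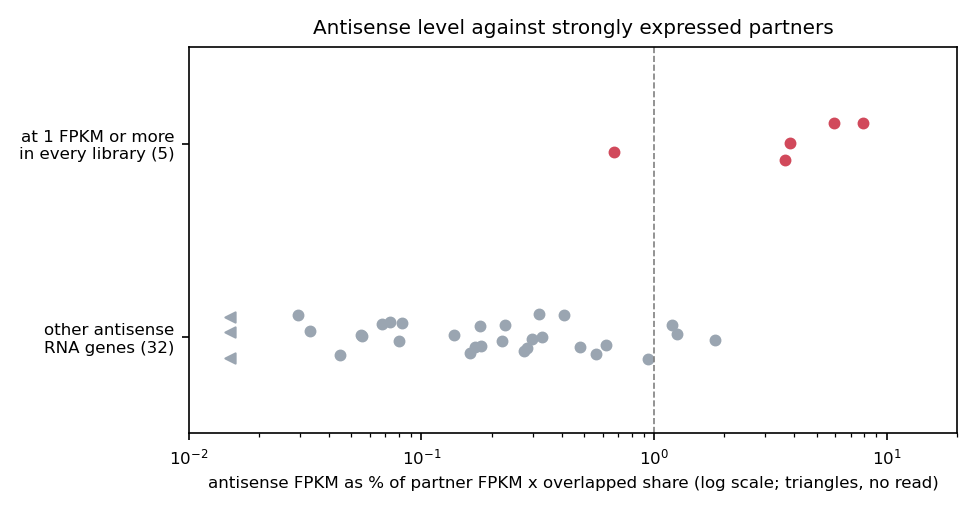
Antisense level as a percentage of the partner's FPKM times the overlapped share of the antisense exons (log scale), for 37 antisense genes with at least 50% overlap and a partner of at least 50 FPKM. Of the 5 at 1 FPKM or more in every library (upper row), 4 lie to the right of the 32 other antisense genes (lower row). Triangles mark the 3 with no read. The rows are split by antisense level, the numerator of the percentage, so the rule sets their separation in part.

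The 53 antisense RNAs were expressed at a low level, with a median of 2.57 FPKM. For all 7556 genes that reached 1 FPKM in every library, the median was 20.6 FPKM. Such genes were 10.6% of the antisense genes, 5.12% of 1933 genes named lncRNA, 51.9% of 13950 protein-coding genes and 42.9% of all genes. Of the 53, 16 averaged under 2 FPKM, 16 from 2 to under 3 FPKM, 7 from 3 to under 5 FPKM, 11 from 5 to under 10 FPKM and 3 above 10 FPKM. The other 447 antisense genes had a median of 0.0327 FPKM, and 108 of them had no read in any library. The 53 held 77.6% of the summed FPKM of all 500, and the 10 highest held 48.0% of the sum over the 53.

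**Figure D3:**
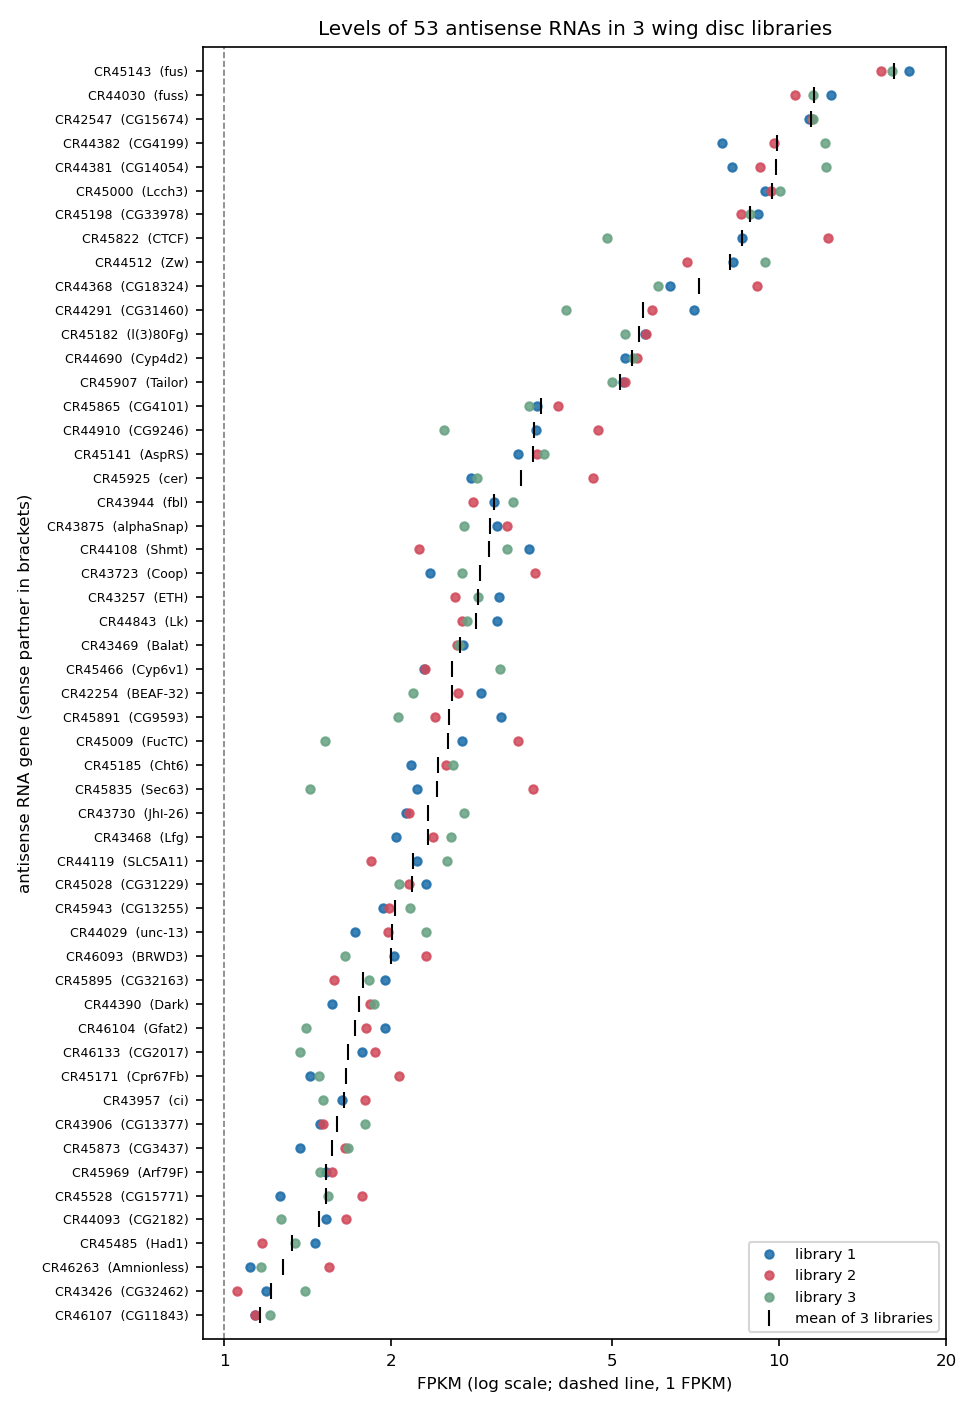
FPKM (log scale) of each of the 53 antisense RNAs in libraries 1, 2 and 3 (coloured points) with the mean (black tick), ordered by mean, with the sense partner in brackets. Levels run from asRNA:CR45143 at the top to asRNA:CR46107 at the bottom, and asRNA:CR45822, asRNA:CR45009 and asRNA:CR45835 have the widest gaps between libraries.

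The highest of the 53 was asRNA:CR45143 (chromosome 2R 15676441 to 15676845, plus strand; dm6 coordinates here and below), at 17.1, 15.3 and 15.9 FPKM in libraries 1, 2 and 3. It has 2 exons and lies head to head with fus, the gene fusilli of an RNA-binding splicing regulator, of which it overlaps 127 exon bases. fus was higher in every library, at 29.0, 29.0 and 28.7 FPKM. By their course over the 3 libraries, measured as the distance of log2(FPKM + 0.1) centred per gene, the antisense RNAs most like it were asRNA:CR44030, asRNA:CR44843 and asRNA:CR45198. With 3 libraries this likeness is a description only.

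asRNA:CR44030 (chromosome 4 959675 to 962692, plus strand) came second, at 12.4, 10.7 and 11.5 FPKM. Its partner fuss, a gene of the Ski family of transcriptional corepressors that it meets tail to tail, was nearly silent at 0.0908, 0.0932 and 0.0537 FPKM. asRNA:CR42547 (chromosome 2R 21631421 to 21634040, minus strand) was the steadiest of the high ones, at 11.3, 11.4 and 11.5 FPKM, while its partner CG15674 was at 0.0623, 0.277 and 0.0663 FPKM. Both antisense RNAs were therefore far above the gene on the other strand in every library. Below them came asRNA:CR44382 and asRNA:CR44381, which are neighbours on chromosome X and are described with the variable genes. asRNA:CR45000 (chromosome X 15926787 to 15927082, minus strand) was at 9.43, 9.67 and 10.04 FPKM, with 57, 57 and 57 reads. Its partner Lcch3, a subunit of a GABA-gated chloride channel, had 1 read in all. asRNA:CR45198 (chromosome 4 175455 to 175874, plus strand) was at 9.15, 8.54 and 8.86 FPKM, opposite CG33978 at 44.8, 44.7 and 48.3 FPKM.

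Most of the partners were themselves expressed. limma's one-sided moderated test of log2(FPKM + 0.1) against 1 FPKM, adjusted over the 13909 genes above 0 in any library, called 39 of the 53 partners, or 76.5% of the 51 that had a read and could be tested. The share called was 53.4% of all genes tested and 58.8% of the 12133 protein-coding genes tested. For partners of the other antisense genes it was 68.5% of 406, with a shared partner counted once for each of its antisense genes. The differences between these shares were not tested. The median level of the 53 partners was 17.5 FPKM, against 9.85 FPKM for the partners of the other antisense genes, counted in the same way.

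Of the 53 antisense RNAs 36 were below their partner in every library, 14 were above it in every library, and 3 changed sides. Over all 497 antisense genes with a partner, 74.6% were below and 6.04% above in every library. The rule that chose the 53 sets these counts in part, since it takes antisense genes with a high level. The median difference of log2(FPKM + 0.1), antisense minus partner, was -2.56, and -2.59 without a pseudocount and with partners that had no read set at the level of 3 reads over the 3 libraries. Per exon length free of exons of other genes, which 48 pairs have, it was -1.68. That measure divides all reads by the uncovered length, although reads opposite exons of the other strand were counted. It therefore overstates the levels of covered antisense RNAs and partners. Across the 53 pairs the levels of antisense RNA and partner showed no common order (Spearman's rho -0.0017, Pearson's r of log2 values -0.08). These points share their libraries, and the antisense levels are cut off at 1 FPKM.

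**Figure D4:**
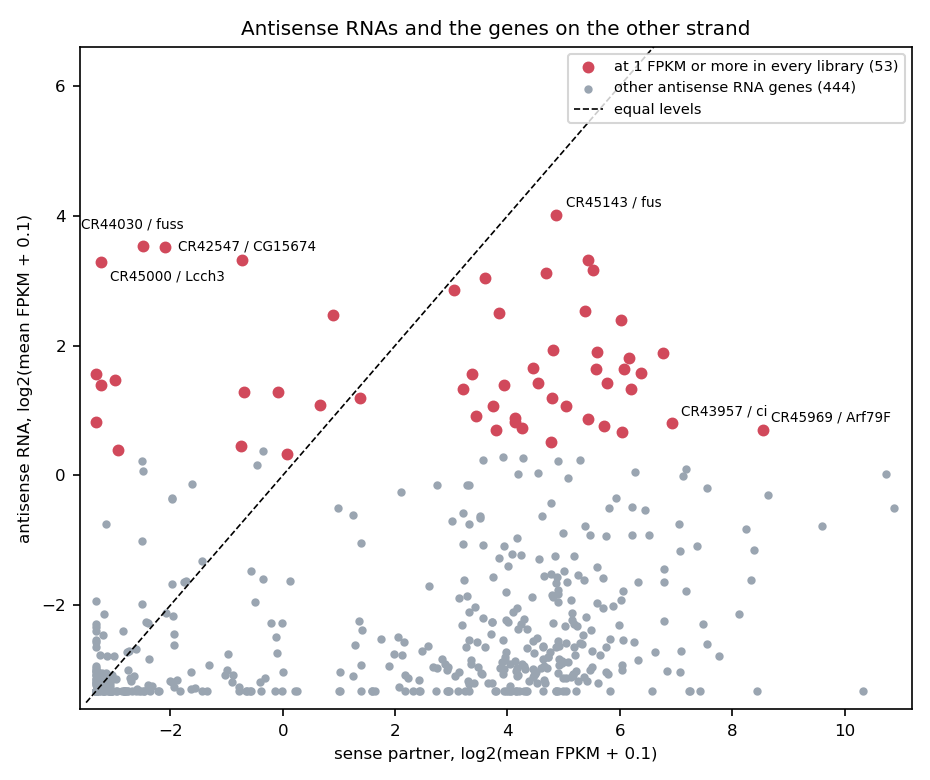
Mean level of each antisense RNA (vertical axis) against its sense partner (horizontal axis), both as log2(mean FPKM + 0.1) over 3 libraries, for the 53 antisense RNAs at 1 FPKM or more in every library and 444 others with a partner. The 53 spread over both sides of the line of equal levels, from asRNA:CR45000 and Lcch3 on the left to asRNA:CR45969 and Arf79F on the right.

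Of the 53 partners 10 stayed under 1 FPKM in every library (18.9%). The same held for the partner of 147 of the 444 other antisense genes with a partner (33.1%), some of which share a partner. The antisense RNAs opposite these 10 had a median level of 2.75 FPKM. For the 39 with a partner at 1 FPKM or more throughout, the median was 2.58 FPKM. Beside fuss, CG15674 and Lcch3, these partners included Lk, which encodes the diuretic neuropeptide leucokinin, and Cpr67Fb, a gene of a cuticle protein. Neither had a read. asRNA:CR44843 was at 3.10, 2.69 and 2.74 FPKM opposite Lk, which is at least 46.0-fold above the 0.0617 FPKM that 3 reads over the 3 libraries would give Lk. asRNA:CR45171 was at 1.43, 2.07 and 1.48 FPKM opposite Cpr67Fb, at least 19.6-fold above its limit of 0.0846 FPKM, and its own start lies 33 bases after the end of Aps, a gene on the same strand at 148 FPKM. Both limits cover counting error only.

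asRNA:CR45009 was at 2.68, 3.39 and 1.52 FPKM, while the fucosyltransferase gene FucTC on the other strand had 1 read in all. Library 3 was the low one. asRNA:CR43469 was at 2.697, 2.63 and 2.65 FPKM, nearly equal in the 3 libraries, and Balat, which lies within its span, had 4 reads in all. asRNA:CR43426 was at 1.19, 1.05 and 1.40 FPKM, against 0.0604, 0.0310 and 0 FPKM for CG32462. asRNA:CR43730 was at 2.12, 2.15 and 2.71 FPKM, against 0.151, 0.464 and 0.936 FPKM for JhI-26, a gene named for its induction by juvenile hormone. JhI-26 was lowest in library 1 and highest in library 3, as were the marker sums of fat body, trachea and neurons. Single genes of these lists did not all share that order, and the part of these tissues in the level of JhI-26 was not tested. The last of the 10 partners under 1 FPKM, CG14054, lies opposite asRNA:CR44381.

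Of the 14 antisense RNAs above their partner throughout, 4 had a partner that reached 1 FPKM in some library. asRNA:CR44690 was at 5.27, 5.55 and 5.46 FPKM, above Cyp4d2, a cytochrome P450 gene within its span, at 1.55, 1.73 and 1.99 FPKM (limma adjusted p 0.00333 for Cyp4d2 above 1 FPKM). asRNA:CR46107 was at 1.14, 1.14 and 1.21 FPKM and CG11843 at 0.890, 0.850 and 1.11 FPKM, so these levels lay close together. In both remaining pairs the partner was high in library 2. asRNA:CR43468 was at 2.04, 2.37 and 2.56 FPKM, and Lfg, a gene of the Lifeguard family of cell death inhibitors, at 0.175, 2.10 and 0.249 FPKM. asRNA:CR46263 was at 1.11, 1.54 and 1.16 FPKM, and Amnionless, which with Cubilin forms a protein uptake receptor, at 0.0992, 1.28 and 0.106 FPKM. asRNA:CR45943 was at 1.94, 1.99 and 2.16 FPKM, and its partner CG13255, also highest in library 2, at 0.4998, 2.96 and 1.01 FPKM. Library 2 also held the highest marker sums of gut, salivary gland, larval muscle, hemocytes, glia and adult muscle precursors. Within these lists betaTry of the gut, srp of hemocytes, nrv2 of glia and Him of muscle precursors were highest in library 3. The part of these tissues in the partners' levels was not tested, and the antisense RNAs at these loci varied by less than 1.5-fold.

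The expressed partners are grouped here by what they are known to do, starting with transcription and chromatin. ci, the transcription factor of the Hedgehog pathway, lies opposite asRNA:CR43957 (chromosome 4 56497 to 63124, plus strand). The antisense RNA was at 1.63, 1.797 and 1.505 FPKM, against 123, 123 and 121 FPKM for ci. The log2(FPKM + 0.1) difference was -6.14 ± 0.11 (SD, n = 3). This antisense RNA has 5 exons, overlaps the start of ci head to head, and shares 53 exon bases, 4.34% of its length, so that nearly all of it lies outside the ci exons. asRNA:CR45822 was at 8.56, 12.2 and 4.90 FPKM, and CTCF, the insulator protein gene, at 24.2, 25.4 and 26.9 FPKM. asRNA:CR42254 was at 2.90, 2.64 and 2.19 FPKM, and BEAF-32, another insulator protein gene, at 55.1, 53.7 and 55.6 FPKM.

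In each of these 3 pairs the antisense RNA was below the partner in every library. The same held for Coop, a corepressor of the Wnt pathway factor Pangolin, with asRNA:CR43723 at 2.89 ± 0.667 FPKM and Coop at 83.3 ± 2.96 FPKM (SD, n = 3 each). It held as well for BRWD3, a bromodomain and WD repeat protein gene, with asRNA:CR46093 at 1.99 ± 0.329 FPKM and BRWD3 at 32.9 ± 1.28 FPKM (SD, n = 3 each). Lists of wing patterning, signalling and chromatin genes were searched for sense partners. As a reference, the 53 had 53 distinct partners and the other antisense genes 432, in a table of 13950 protein-coding genes. Whether the lists differ from that share was not tested. Of 49 measured wing patterning genes, 2 were the partner of any antisense gene: ci, and hth, opposite asRNA:CR44018 at 0.0201 FPKM. Of 54 signalling genes there was 1, Axn, opposite asRNA:CR44045 with 2 reads, and of 18 chromatin genes there was 1, trx, opposite asRNA:CR46020 at 0.309 FPKM. Of these antisense genes only that of ci is among the 53.

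Some partners encode enzymes of metabolism. asRNA:CR44512 was at 8.24, 6.82 and 9.43 FPKM and Zw, which encodes glucose-6-phosphate dehydrogenase of the pentose phosphate pathway, at 12.1, 13.3 and 10.8 FPKM. The antisense RNA was highest in library 3, where Zw was lowest, and the difference of log2(FPKM + 0.1) was -0.56 ± 0.38 (SD, n = 3). asRNA:CR44108, the shortest of the 53 at 223 exon bases, was at 3.54, 2.25 and 3.23 FPKM, and Shmt, which encodes serine hydroxymethyltransferase, at 66.2, 69.0 and 66.5 FPKM. With 21, 13 and 18 reads its spread was within that of counting. asRNA:CR46104 was at 1.72 ± 0.281 FPKM and Gfat2, an enzyme of hexosamine synthesis, at 43.2 ± 0.347 FPKM. asRNA:CR43944 was at 3.06 ± 0.249 FPKM and fbl, a pantothenate kinase of coenzyme A synthesis, at 21.8 ± 0.392 FPKM. asRNA:CR45466 was at 2.58 ± 0.493 FPKM and Cyp6v1, a cytochrome P450, at 23.2 ± 1.46 FPKM (SD, n = 3 each). In these pairs the antisense RNA was below the partner in every library, unlike asRNA:CR44690, which was above the cytochrome P450 gene Cyp4d2.

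Other partners have roles in RNA, translation and protein handling. asRNA:CR45141 was at 3.39, 3.66 and 3.78 FPKM, and AspRS, the aspartyl-tRNA synthetase gene whose end it overlaps tail to tail over 1448 exon bases, at 107, 109.7 and 110.4 FPKM. asRNA:CR45907 was at 5.23, 5.28 and 4.99 FPKM, and Tailor, a uridylyltransferase that modifies microRNA precursors, at 63.9, 66.1 and 65.6 FPKM. These pairs were steady, with log2(FPKM + 0.1) differences of -4.88 ± 0.06 for AspRS and -3.63 ± 0.05 for Tailor (SD, n = 3 each). asRNA:CR43875 was at 3.01 ± 0.275 FPKM and alphaSnap, which takes SNARE complexes apart, at 47.7 ± 1.21 FPKM. asRNA:CR45925 was at 2.79, 4.62 and 2.86 FPKM and cer, an inhibitor of cysteine proteases, at 63.2, 80.3 and 70.3 FPKM. Both genes of that pair were highest in library 2. asRNA:CR44390 was at 1.75 ± 0.164 FPKM and Dark, the Apaf-1 relative of the cell death machinery, at 17.5 ± 0.717 FPKM (SD, n = 3 each).

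Some partners are known from nerve, hormone and cuticle biology. asRNA:CR43257 was at 3.13, 2.60 and 2.87 FPKM, and ETH, which encodes the ecdysis-triggering hormone and lies within its span, at 9.497, 10.8 and 10.4 FPKM. Exons of the antisense RNA cover 90.5% of the ETH exons, and their reads were counted apart by strand. asRNA:CR44029 on chromosome 4, a single exon of 5379 bases and the longest of the 53, was at 1.72, 1.98 and 2.31 FPKM, and unc-13, a synaptic vesicle priming gene, at 14.2, 11.9 and 13.6 FPKM. asRNA:CR45185 was at 2.17, 2.51 and 2.58 FPKM, and Cht6, a chitinase gene, at 9.54, 8.73 and 9.01 FPKM. Both of these long RNAs lie mostly in introns of their partner, with 13.1% and 16.0% of their length opposite its exons. asRNA:CR44119 changed sides, at 2.22, 1.84 and 2.52 FPKM against 2.03, 2.45 and 3.01 FPKM for the solute transporter gene SLC5A11. So did asRNA:CR44368, at 6.35, 9.10 and 6.04 FPKM against 7.66, 8.71 and 8.16 FPKM for CG18324, and asRNA:CR45943, described with Lfg and Amnionless.

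The remaining 13 antisense RNAs lie opposite genes that are known here mostly by an annotation number, and each was below its partner in every library. Their means ran from 1.32 FPKM for asRNA:CR45485, opposite Had1, to 5.68 FPKM for asRNA:CR44291, opposite CG31460. The widest gap was that of asRNA:CR44093, at 1.53, 1.66 and 1.27 FPKM, against 65.4, 64.7 and 66.8 FPKM for CG2182. asRNA:CR43906 was at 1.49, 1.51 and 1.796 FPKM, against 52.4, 52.3 and 53.8 FPKM for CG13377. In both, the antisense RNA was under 5% of the partner's level, as were 12 of the 53 and 326 of the other antisense genes. asRNA:CR45485 was at 1.46, 1.17 and 1.34 FPKM, against 26.8, 28.3 and 27.1 FPKM for Had1. This antisense RNA shares part of its exons with CG3679 on its own strand.

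The position of the antisense RNA to its partner differed among the 53. In 18 pairs the genes overlapped head to head at their starts, in 16 the antisense RNA lay within the partner's span, in 11 the genes overlapped tail to tail at their ends, and in 8 the partner lay within the antisense RNA's span. As shares of the 53 these are 34.0%, 30.2%, 20.8% and 15.1%. Among the 444 other antisense genes with a partner they were 29.3%, 52.0%, 10.4% and 8.33%. Where the partner lay within the antisense RNA, 7 of 8 antisense RNAs were above it in every library, all but that of ETH, and the median level of those partners was 0.274 FPKM. In the head to head pairs 2 of 18 were above, in the tail to tail pairs 3 of 11 and within the partner's span 2 of 16, with median partner levels of 30.9, 19.1 and 19.6 FPKM. Among other antisense genes the partners within their spans were low as well, with a median of 0.482 FPKM.

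The median exon length was 911 bases in the 53 and 919 in the others, and exons on the other strand covered a median of 66.3% and 71.1% of it. A single exon was annotated for 21 of the 53 (39.6%), against 232 of the 447 others (51.9%). Shorter genes among the 53 tended to have the higher FPKM (Spearman's rho -0.31 across the 53 genes, which share their libraries and are divided by that length). The 4 wholly covered by exons on the other strand were asRNA:CR45865 at 3.66, 3.99 and 3.53 FPKM, asRNA:CR44910 at 3.65, 4.71 and 2.49 FPKM, asRNA:CR45891 at 3.16, 2.40 and 2.06 FPKM and asRNA:CR45943. These 4 had reads although no base of their exons is free of the partner on the other strand. The least covered after asRNA:CR43957 were asRNA:CR44029, asRNA:CR45185, asRNA:CR44093 at 1.53, 1.66 and 1.27 FPKM and asRNA:CR43723. By chromosome the 53 were 12 of 70 antisense genes on X, 4 of 10 on chromosome 4, 13 of 108 on 3L, 12 of 97 on 2R, 9 of 123 on 3R and 3 of 92 on 2L.

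The nearest gene before each antisense RNA on the same strand was recorded as well. In 14 of the 53 (26.4%) a gene with a mean of 1 FPKM or more ended within 1000 bases before the start or overlapped it, against 62 of the 447 others (13.9%). asRNA:CR45000 starts 103 bases after the end of Ranbp16, which stood at 30.1, 30.0 and 30.1 FPKM, and asRNA:CR43469 962 bases after that of bic, at 749.9, 760.2 and 781 FPKM. Their own levels were 9.43, 9.67 and 10.04 FPKM and 2.697, 2.63 and 2.65 FPKM. The part of the neighbours in these levels was not tested. For the other 39 no gene at that level ended so near, and the 5 highest of the 53 are among these 39.

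Variation between libraries was measured as the SD of log2(FPKM + 0.1). Its median was 0.160 over the 53, against 0.0948 for the 3069 genes in the same range of mean level. These 3069 were likewise at 1 FPKM or more throughout. They were not matched to the 53 on reads, exon length or place within that range, and the difference was not tested. The variance between libraries, as a multiple of that from counting alone, had a median of 1.08 and exceeded 3 in 11 of the 53. Its median was 0.995 in the other antisense genes with reads. The highest library was over 1.5 times the lowest for 11 antisense RNAs, and over 2 times for 3. None of the partners of those 11 that had a read in every library varied by more than 1.5-fold. By library, 14 of the 53 were highest in library 1, 20 in library 2 and 19 in library 3. The counts of variable antisense RNAs and of the highest library were not made for other genes. They therefore have no reference here and do not set the 53 apart.

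The widest spreads were found in a pair of neighbours. asRNA:CR45822 (chromosome 3L 7355717 to 7356598, plus strand) and asRNA:CR45835 (chromosome 3L 7361639 to 7363598, minus strand) face each other with a gap of 5040 bases. asRNA:CR45822 was at 8.56, 12.2 and 4.90 FPKM, with 201, 280 and 108 reads, and asRNA:CR45835 at 2.22, 3.60 and 1.43 FPKM, with 116, 183 and 70 reads. Both were highest in library 2 and lowest in library 3, with ratios of highest to lowest of 2.50 and 2.52 and a variance 35.1 and 24.9 times that of counting. Their partners did not share this course to that extent: CTCF was at 24.2, 25.4 and 26.9 FPKM, and Sec63, a gene of protein import into the endoplasmic reticulum, at 73.1, 77.7 and 68.2 FPKM. pst, which lies between them, was at 29.5, 39.4 and 28.4 FPKM, also highest in library 2. Of the marker sums, that of 5 adult muscle precursor genes had the same order over a narrower range, at 167, 179 and 164 FPKM. Ama made up most of that sum, at 116, 124 and 111 FPKM. twi and htl had the order of Ama, but Him was highest in library 3 and stumps lowest in library 1. The part of these genes in the levels was not tested. The gut, salivary gland and fat body sums were lowest in library 1.

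A pair on chromosome X also moved together. asRNA:CR44381 (chromosome X 2065455 to 2066106, plus strand) was at 8.22, 9.23 and 12.1 FPKM, and asRNA:CR44382 (chromosome X 2071710 to 2072189, plus strand), 5603 bases further on the same strand, at 7.90, 9.79 and 12.1 FPKM. Both were lowest in library 1 and highest in library 3, and within each library their levels were nearly equal. The partner of asRNA:CR44381, CG14054, was at 0.694, 0.293 and 0.521 FPKM, with a log2(FPKM + 0.1) difference of 4.09 ± 0.62, and that of asRNA:CR44382, CG4199, was at 41.5, 40.6 and 46.8 FPKM, with -2.12 ± 0.23 (SD, n = 3 each). The antisense RNA was above the partner in the first pair and below it in the second. The genes beside the pair on the same strand did not share one course. CG4194, which lies between the antisense RNAs, was at 2.22, 1.86 and 1.97 FPKM, highest in library 1. Rtca, the next gene after asRNA:CR44382, was at 30.1, 29.9 and 36.4 FPKM, highest in library 3. The fat body sum and that of 5 tracheal genes, at 372, 401 and 428 FPKM, had the order of the antisense pair. So did that of 3 neuron genes, at 3.212, 3.214 and 3.336 FPKM. Not all genes of these lists shared it: trh and nSyb were highest in library 1, and btl, serp, Fbp1 and elav in library 2. The part of these genes in the levels was not tested. These neighbours were picked out after their values were seen.

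**Figure D5:**
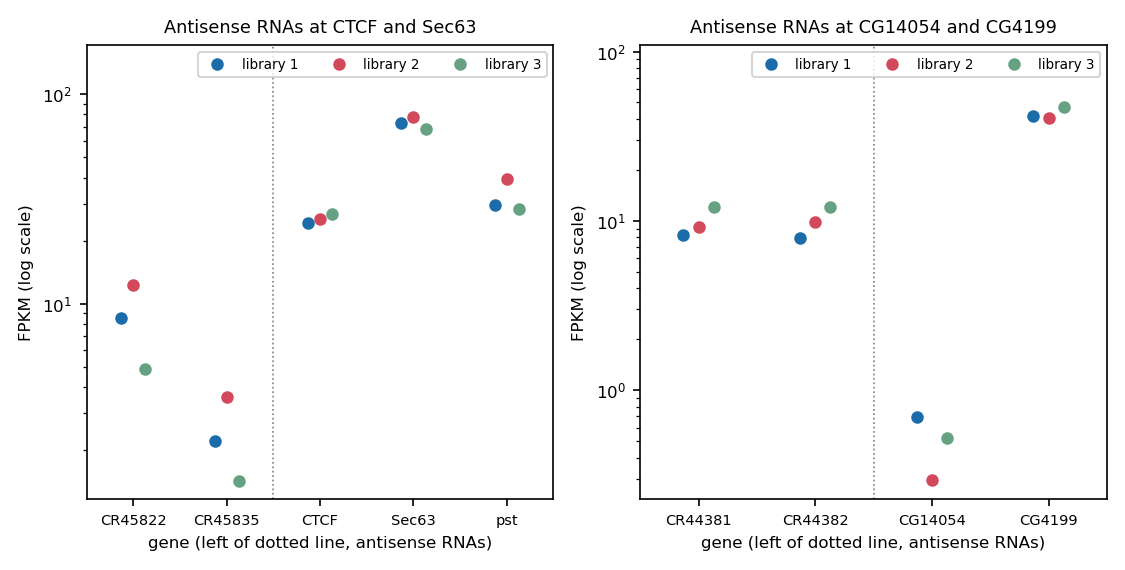
FPKM (log scale) in libraries 1, 2 and 3 of 2 pairs of neighbouring antisense RNAs (left of the dotted lines) and of genes at the same loci (right of the lines). asRNA:CR45822 and asRNA:CR45835 are highest in library 2 and lowest in library 3, and asRNA:CR44381 and asRNA:CR44382 lowest in library 1 and highest in library 3.

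A group of 3 antisense RNAs on chromosome 2R lies beside vg, the selector gene of the wing, which was at 63.1, 60.5 and 62.9 FPKM. asRNA:CR43469 and asRNA:CR43468 follow each other on the plus strand with 76 bases between them, opposite Balat and Lfg. asRNA:CR45141 lies on the minus strand between them and vg, opposite AspRS. Their levels, given above with their partners, were 2.66, 2.33 and 3.61 FPKM on average and varied little, with ratios of highest to lowest of 1.03, 1.26 and 1.11.

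Some other antisense RNAs also had wide spreads. asRNA:CR44368 was at 6.35, 9.10 and 6.04 FPKM, highest in library 2 and lowest in library 3, with a variance 16.4 times that of counting. asRNA:CR44291 was at 7.02, 5.90 and 4.13 FPKM, highest in library 1, opposite CG31460 at 39.3, 41.3 and 44.4 FPKM. asRNA:CR44910, opposite CG9246, and asRNA:CR45009 were highest in library 2 and lowest in library 3, the order of asRNA:CR44368 and of the pair beside CTCF and Sec63. With 39, 49 and 25 reads, the variance of asRNA:CR44910 was 3.45 times that of counting.

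The limit of 1 FPKM does not mark a gap in the levels. The 5 genes whose lowest library was nearest above it were asRNA:CR43426, asRNA:CR46263, asRNA:CR46107, asRNA:CR45485 and asRNA:CR45528, with lowest values of 1.05, 1.11, 1.14, 1.17 and 1.26 FPKM. The 5 nearest below it were asRNA:CR45479, asRNA:CR43465, asRNA:CR45928, asRNA:CR44807 and asRNA:CR45999, with 0.908, 0.891, 0.888, 0.885 and 0.878 FPKM. asRNA:CR45479, opposite the cytochrome P450 gene Cyp4d14, was at 0.995, 0.908 and 1.14 FPKM. In all 19 antisense genes passed 1 FPKM in some library but not in every one.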

How the data were processed

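RNA of wing discs was sequenced in 3 samples of 1 group. The authors deposited FPKM values of 17611 genes, 1 column per library. Columns were matched to samples by number, because the prefix w118 of the column names is in no label. Per the submitters' processing notes the build was dm6, and STAR 2.7.6a, featureCounts 1.6.0, CASAVA 1.8, FastQC 0.11.8 and DESeq2 were used. Neither the annotation nor the strand setting is given in the sources used here. Gene models came from Ensembl release 115 (dm6 coordinates) and cover 17551 genes. FPKM times exon length gave whole reads (tolerance 0.01) for over 99.7% of genes above 0, and these served for depth and counting error. limma 3.58.1 (R 4.3.3) tested log2(FPKM + 0.1) against 1 FPKM, one-sided, with Benjamini-Hochberg adjustment and a threshold of 0.05, and was tested on simulated data. The members and gene lists were chosen with earlier results of these data known. Named genes were the highest, lowest, most variable, most and least covered and the extreme pairs, with listed partners. Genes sharing sequence with copies elsewhere were not singled out. No sequences are shown, as no genome was used here.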

Additional observations from a re-analysis of the deposited data

How the results depend on the processing

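The number of antisense RNAs depended on what counts as expressed: it was 53 at 1 FPKM, 32 at 2 FPKM, 75 at 0.5 FPKM, 89 at 10 or more reads in each library and 103 per exon length free of exons of other genes, where wholly covered genes, 4 of the 53 among them, could not be given a value. Left out one at a time, the libraries gave 54 to 57, and the count was 53 per exon length free of exons on the same strand and 50 after 1% of the partner's level was taken off, both chosen after the data were seen. Omitting a library or dividing by the length free of same-strand exons can only keep or raise this count. Taking off 1% can only keep or lower it. The median log2 difference to the partner was -2.25 with a pseudocount of 1 and -1.68 per uncovered length (48 pairs), against -2.56, and -2.59 to -2.49 without one library. Partners called above 1 FPKM by limma numbered 39 under each pseudocount, filter and omitted library and 40 with partners chosen by span. Antisense RNAs below their partner in every library numbered 32 to 37, and the median SD was 0.114 to 0.166. Values per length free of exons of other genes divide all reads by a shorter length, although reads opposite other-strand exons were counted. They overstate the levels of covered genes. The count of 103, the -1.68 and the 32 below their partner rest on them. No paired analysis was possible because there is 1 group. Low read counts limit the precision of single levels.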

Other observations

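Among the antisense genes that did not reach 1 FPKM in every library, some differed widely between libraries. asRNA:CR45600, whose span contains CG3984, was at 0.322, 1.94 and 1.33 FPKM in libraries 1, 2 and 3 and was the highest of them on average. The marker sums of gut (6.90, 876 and 391 FPKM) and salivary gland (126, 811 and 288 FPKM) had the same order. So did those of larval muscle (39.7, 63.9 and 51.3 FPKM), hemocytes (32.99, 39.41 and 33.04 FPKM) and glia (155, 160 and 157 FPKM). Single genes of the gut, hemocyte and glia lists did not all share it. The fat body sum was also lowest in library 1. The part of these tissues in the difference was not tested. asRNA:CR45146, opposite rdgBbeta, was at 1.36, 0.0465 and 1.01 FPKM, with library 2 low. asRNA:CR31144, opposite the ribosomal protein gene RpL3, was at 1.07, 1.31 and 0.358 FPKM, or 0.0730% of the RpL3 level over the overlap.

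Among the other antisense genes with reads, the level followed that of the partner to some degree (Spearman's rho 0.32 across 337 genes). The genes share their libraries and most of them have few reads. The 53 are cut off at 1 FPKM, so the value across them, given above, cannot be set against this one.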
